A study of Mus musculus with 2 samples.

Results

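Open chromatin was described at 5 genes of the mouse adrenal gland: Gata4, Gata5 and Gata6, which encode zinc finger transcription factors, and Zfpm1 and Zfpm2, which encode the cofactors known as Friend of GATA. The genes were chosen by name, as the GATA factors of steroid-producing tissue and their cofactors, out of 21802 protein-coding genes of the annotation. DNase-seq was run on adrenal gland of B6CASTF1/J males, 25 days old. In this method the enzyme DNase I cuts accessible DNA in nuclei and the cuts are sequenced. The 2 libraries were taken to come from 1 animal each. B6CASTF1/J is a first-generation cross of the C57BL/6J and CAST/EiJ strains. No treatment or induced allele is stated, and the 2 libraries form a single group. Values are therefore given for each library and no test between conditions was possible. The labels number the libraries as separate biological replicates but give a shared donor code, and the spread between them is that of these libraries only.

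A DNase I hypersensitive site (DHS) is a stretch of accessible chromatin, found at active gene starts and at regulatory elements away from them. Each gene was given the DHSs of the longer deposited list that touch its body or the 50 kb on either side. This took 94 of 130945 DHSs in replicate 1 and 87 of 157786 in replicate 2. The height of a DHS is the deposited signal at that site, whose steps fit a scaling to the size of the library, although no label states one. A start was called open when a DHS lay within or reached into the 1 kb flanks of a protein-coding transcript start, and a DHS was called distal when it touched no such flank of any protein-coding gene. These assignments did not use the heights, although single DHSs are named by height. The genes and gene lists were chosen with earlier results of these data known.

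GATA factors bind DNA through a zinc finger that recognises the core letters GATA, and recruit Zfpm proteins, which do not bind this element themselves and can turn activation into repression. In the adrenal cortex GATA6 and GATA4 act beside the nuclear receptor SF-1, the product of Nr5a1, on genes of steroid synthesis. Gata4 marks the fetal cortex and the gonad, whereas Gata6 is the member of the family known for expression in the postnatal cortex. Gata5 is best known from heart and gut, Zfpm1 from blood cell formation, and Zfpm2 from heart and gonad development.

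The material was whole gland, so fewer cells of a type and less accessibility per cell cannot be told apart. All 7 cortex markers had an open start in both libraries, as did 5 of 6 chromaffin, 5 of 5 endothelial and 4 of 5 capsule and stroma markers, while 0 of 4 heart muscle, 0 of 2 kidney and 0 of 2 liver markers did. Of the 5 gonad markers 4 were open in both libraries and 5 in replicate 1. The erythroid markers were open in both at 2 of 6, with both listed beta globin genes and Gata1 closed. These shares stand beside 65.8% of all protein-coding genes open in both libraries. An open start can be low: the cortex markers ran from 0.458 at Mc2r to 9.01 at Nr5a1 in replicate 1. Heights ran lower in replicate 2, with a median of 0.720 against 1.01, and at DHSs found in both libraries the median log2 ratio of replicate 2 to replicate 1 was -0.34. The central 90% of those 81485 ratios lay between -1.56 and 0.75.

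The starts of 4 of the 5 genes were open in both libraries, and that of Gata5 in replicate 1 only. Open starts were found at 69.4% of protein-coding genes in replicate 1, 69.1% in replicate 2 and 65.8% in both. The order of the genes by height of the highest start DHS was the same in each library: Zfpm1, Gata6, Zfpm2, Gata4, Gata5. Zfpm1 stood at 27.5 and 22.5 in replicates 1 and 2, and Gata6 at 7.72 and 4.81. Zfpm2 reached 4.37 and 2.43, and Gata4 3.46 and 1.26. Gata5 reached 1.53 in replicate 1 and had no start DHS in replicate 2. The values of Zfpm1 and of Gata6 did not overlap those of the next gene in the order, whereas those of Zfpm2, Gata4 and Gata5 did. Among genes with an open start Zfpm1 was at the 98.3 and 99.0 percentile, Gata6 at 44.8 and 41.5, Zfpm2 at 29.6 and 26.4, Gata4 at 25.4 and 16.1, and Gata5 at 14.3 in replicate 1.

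**Figure D1:**
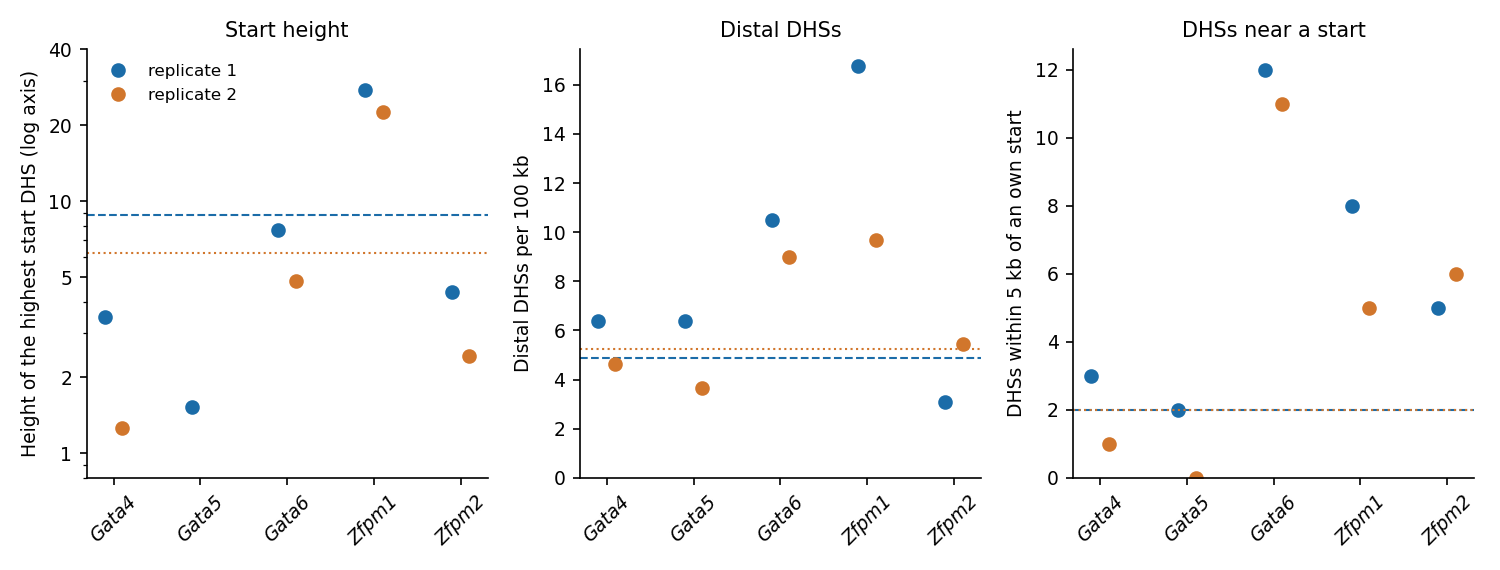
Height of the highest start DHS (log axis), distal DHSs per 100 kb of window, and DHSs within 5 kb of any own protein-coding start, for each gene in replicate 1 (blue) and replicate 2 (orange); Gata5 has no start DHS in replicate 2. Dashed (replicate 1) and dotted (replicate 2) lines are medians over protein-coding genes, for start height over genes with an open start (8.85 and 6.25); Zfpm1 stands highest at its start and Gata6 has the most DHSs near its starts (12 and 11).

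Gata4 lies on the minus strand of chromosome 14 at 63198922-63271692 (mm10), 72.8 kb, and has protein-coding transcripts from 3 regions. The start region shared by 2 transcripts, at 63245248 and 63245271, carried the DHS chr14:63245201-63245560, with a height of 3.46 in replicate 1 and 1.26 in replicate 2. The most upstream start, at 63271692, carried a DHS of 0.875 in replicate 1 and none in replicate 2. The start at 63213607 carried none in either. Of 17 and 12 DHSs in the window of Gata4, 11 and 8 were distal, and of these 5 and 3 had a Gata4 start as the nearest protein-coding start. The highest DHS of the window, chr14:63177901-63178220, had 20.97 and 16.1. It lies in the 1 kb flank of a start of Fdft1, the squalene synthase of cholesterol synthesis, without covering that start. Its centre is 298 bases from the start in replicate 1 and 208 in replicate 2. Introns of Fdft1 also held DHSs that rank among the 3 highest distal ones of the window, chr14:63164641-63165080 at 7.01 and 4.94 and chr14:63164301-63164500 at 3.81 and 2.63.

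Among DHSs found in both libraries, the 3 that differed most in the Gata4 window were within Gata4 or in the gap between it and Neil2. A DHS in the gap between Gata4 and Neil2, chr14:63195881-63196060, had a height of 6.88 in replicate 1 and 1.09 in replicate 2, a log2 ratio of -2.66. Its nearest protein-coding start is that of Neil2, at 2430 bases, so it cannot be assigned to Gata4. One in an intron of Gata4, chr14:63256001-63256180, had 4.42 and 1.24, a ratio of -1.83, and the start DHS had a ratio of -1.46. The first 2 fall below the central 90% of shared DHSs and the start DHS falls within it. The start heights of the 7 cortex markers summed to 35.5 in replicate 1 and 18.9 in replicate 2, those of the 6 chromaffin markers to 11.4 and 6.57, those of the 5 capsule and stroma markers to 24.2 and 10.9, and those of the 5 endothelial markers to 16.9 and 11.4. Those of the 5 gonad markers summed to 11.0 and 4.10, while those of the 6 erythroid markers were higher in replicate 2, at 3.19 and 4.15. The part of cell makeup in the Gata4 values was not tested. The 2 distal DHSs are shown because they were the highest in that gap and within Gata4 in replicate 1. Their sequences are read from GRCm38.p6 on the plus strand, with the bases of replicate 1 footprints in capitals. A footprint is a short protected stretch within a DHS, where a bound protein is taken to keep DNase I from cutting.
Gata4-Neil2 DHS: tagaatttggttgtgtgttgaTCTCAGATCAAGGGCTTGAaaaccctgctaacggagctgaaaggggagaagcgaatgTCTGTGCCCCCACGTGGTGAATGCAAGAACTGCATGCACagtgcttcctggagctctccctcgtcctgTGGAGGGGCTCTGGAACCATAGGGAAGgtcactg
Gata4 intronic DHS: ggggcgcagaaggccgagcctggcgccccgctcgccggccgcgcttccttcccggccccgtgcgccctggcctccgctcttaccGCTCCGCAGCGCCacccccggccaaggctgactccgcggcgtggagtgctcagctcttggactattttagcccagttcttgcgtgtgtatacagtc
The Gata4-Neil2 DHS holds 3 footprints in replicate 1 and 1 in replicate 2. Its last capitals run to within 5 bases of the end of AAGGTCA, the letters bound by SF-1 and related nuclear receptors, at 63196051-63196057. The intronic DHS holds 1 footprint in replicate 1 and 0 in replicate 2.

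Gata5 lies on the minus strand of chromosome 2 at 180325133-180334699, 9.57 kb, with 1 protein-coding start at 180334699. In replicate 1 the start was covered by a DHS of 1.53 at chr2:180334681-180334840, with a second of 0.633 at chr2:180334128-180334546 over the coding exon. Replicate 2 had neither. In the deposited cut-rate track, which gives a false discovery rate (FDR) per base, 742 of 2001 bases around this start were at an FDR of 0.05 or less in replicate 1, the lowest being 2.69e-09, and 0 were in replicate 2. The window held 9 and 4 DHSs, and the highest were distal: chr2:180347221-180347380, 12602 bases upstream of the start, at 5.78 and 3.42, and chr2:180275861-180276100, nearest to Cables2, at 5.04 and 2.59. The third distal DHS found in both libraries, chr2:180373313-180373520, was the only one of these 3 that was higher in replicate 2, at 0.700 against 1.20. Gata5 and Zfpm1 are the 2 of the 5 genes with an entry in the RefSeq promoter table (GRCm38.p6), which gives the bases just before and after a start. Gata4, Gata6 and Zfpm2 have none. The promoter of Gata5 is shown on its own strand, chr2:180334630-180334929, because its accessibility was seen in only 1 library, and the upstream DHS on the plus strand because it was higher than the start in both. Capitals are bases of replicate 1 footprints.
Gata5 promoter: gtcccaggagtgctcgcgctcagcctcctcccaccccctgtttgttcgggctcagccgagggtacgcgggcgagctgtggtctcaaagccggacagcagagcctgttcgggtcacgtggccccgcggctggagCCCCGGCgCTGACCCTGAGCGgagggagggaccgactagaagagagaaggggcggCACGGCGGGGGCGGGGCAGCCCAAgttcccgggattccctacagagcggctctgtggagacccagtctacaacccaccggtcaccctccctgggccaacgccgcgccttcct
Gata5 upstream DHS: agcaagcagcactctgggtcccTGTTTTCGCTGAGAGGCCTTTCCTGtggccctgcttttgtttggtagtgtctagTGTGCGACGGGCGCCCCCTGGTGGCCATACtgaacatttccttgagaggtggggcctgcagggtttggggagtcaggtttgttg
The promoter holds 3 footprints in replicate 1 with 44 bases in all, and the upstream DHS 2 with 55 bases.

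Gata6 lies on the plus strand of chromosome 18 at 11052064-11085635, 33.6 kb, with protein-coding starts at 11052064, 11052470 and 11053044. The DHS over the start at 11052470, chr18:11052261-11052640, had a height of 7.72 in replicate 1 and 4.70 in replicate 2, and that over the 5′ untranslated exon, chr18:11053081-11053400, 5.67 and 4.81. A lower DHS upstream, chr18:11051361-11051540, had 1.86 and 2.02. A divergent non-coding transcript, 1010001N08Rik, begins at 11052567, within chr18:11052261-11052640 in its replicate 2 extent. Accessibility there therefore cannot be assigned to 1 of the 2 genes. All of the 14 and 12 distal DHSs had a Gata6 start as their nearest protein-coding start. The highest of them stood at 2.02 in replicate 1 and 1.71 in replicate 2, and their median at 1.07 and 1.01. With start DHSs included, the median was 1.22 and 1.06 in the window of Gata6, against 1.01 and 0.720 over all DHSs of each library. The 3 named by rank over both libraries were chr18:11016021-11016200, 35953 bases upstream of the 5′ end, at 2.02 and 1.26, chr18:11049301-11049500 at 1.70 and 1.39, and chr18:11102661-11102820, past the 3′ end, at 0.933 and 1.71. Within 5 kb of an own start lay 8 of the 14 distal DHSs in replicate 1 and 6 of the 12 in replicate 2. With the start DHSs this made 12 and 11, which is the 99.3 and 98.9 percentile over protein-coding genes, whose median was 2 in each library.

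Gata6 had more DHSs close to its starts than Gata4 and Gata5 had, and more distal DHSs per length of window. Gata4 had 3 and 1 DHSs within 5 kb of an own start and Gata5 had 2 and 0, against 12 and 11 at Gata6. This distance was chosen after the data were seen. The 2 counts overlap, as 8 of the 14 and 6 of the 12 distal DHSs of Gata6 lay within 5 kb of its starts. At Gata4 these were 1 of 11 and 0 of 8, and at Gata5 0 of 7 and 0 of 4. The distal density below therefore does not show more DHSs far from the starts of Gata6. Distal DHSs made up 75 of 94 and 69 of 87 DHSs of the 5 windows, beside 76% and 80% of DHSs in the whole lists. Per 100 kb of window, Gata6 had 10.5 distal DHSs in replicate 1 and 8.98 in replicate 2. Gata4 had 6.37 and 4.63, and Gata5 6.39 and 3.65, so that Gata6 was above both in each library. The medians over protein-coding genes were 4.89 and 5.23, and Gata6 stood at the 86.8 and 81.6 percentile. The mean difference over the 2 libraries was 4.23 from Gata4 and 4.71 from Gata5.

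That difference depended on the window. With 10 kb on either side it was 12.6 from Gata4 and 15.9 from Gata5, and with 100 kb it was 1.26 and 1.05. For all DHSs within 100 kb the order turned in replicate 1, where Gata6 had 9.42 per 100 kb, Gata4 9.53 and Gata5 10.02. On the shorter, stricter list of replicate 2 Gata6 had 3.74 distal DHSs per 100 kb and Gata4 3.47. The highest distal DHS was 7.01 and 4.94 in the window of Gata4, where it lies in an intron of Fdft1, 5.78 and 3.42 in that of Gata5, and 2.02 and 1.71 in that of Gata6. The median distal height was 3.79 and 1.17 for Gata4, 0.750 and 1.90 for Gata5, and 1.07 and 1.01 for Gata6, so the order of Gata5 and Gata6 by median turned between the libraries.

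**Figure D2:**
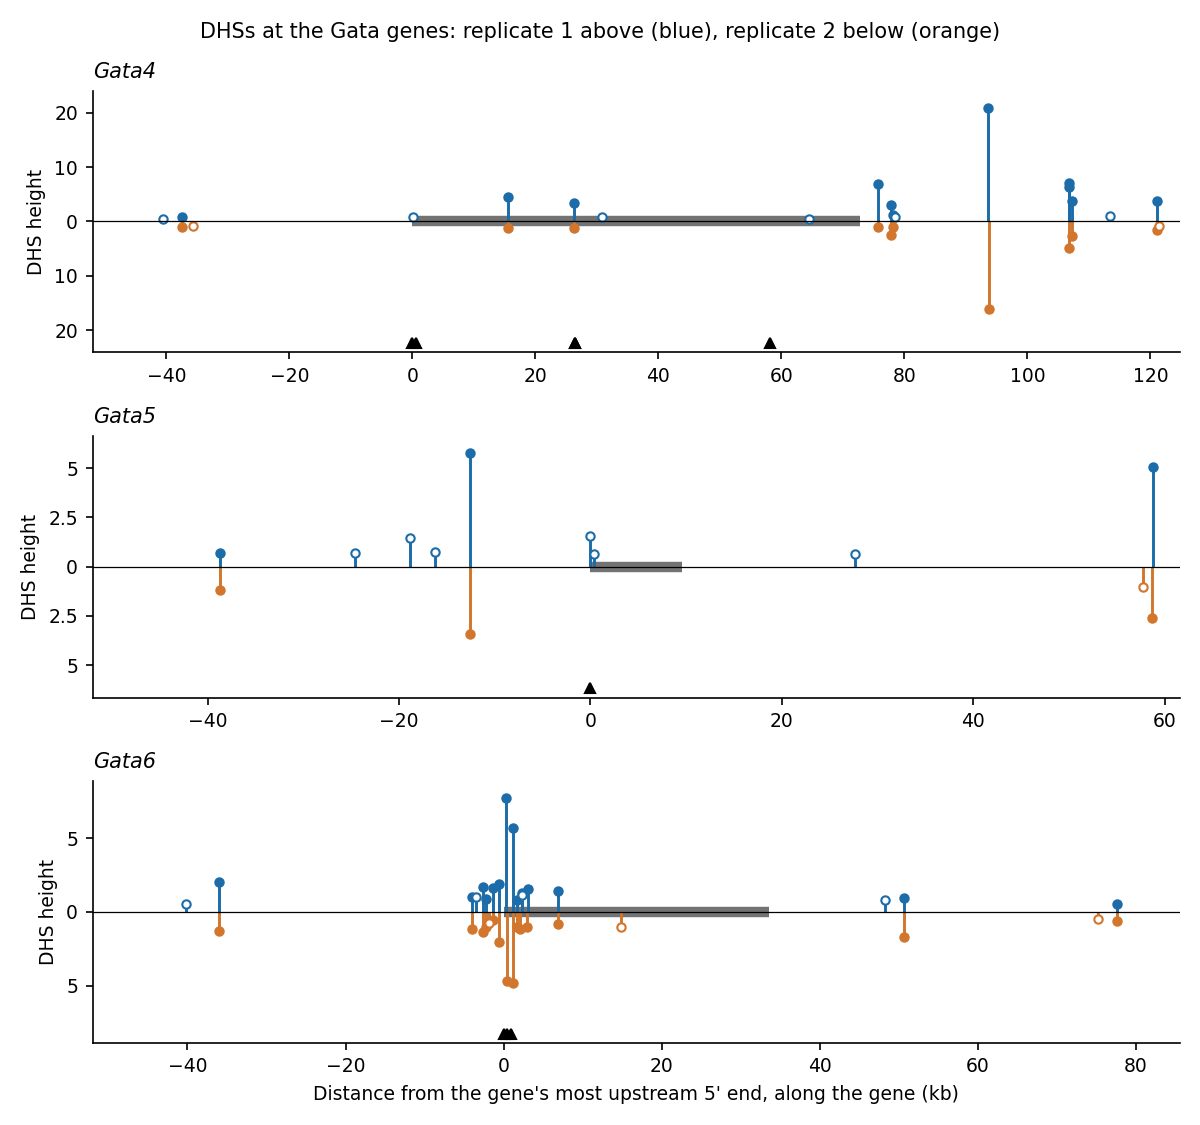
DHSs at Gata4, Gata5 and Gata6 by distance from the most upstream 5′ end (kb, along the gene), with DHS height upward for replicate 1 (blue) and downward for replicate 2 (orange); each panel has its own height scale. Filled circles are DHSs that overlap one of the other library, and open circles those that do not. The grey bar is the gene body and black triangles are protein-coding starts. DHSs of Gata6 gather at its starts, whereas the highest stem in the Gata4 window (20.97 and 16.1) is a DHS beside a start of Fdft1.

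The cofactor gene Zfpm1 lies on the plus strand of chromosome 8 at 122282141-122337251, 55.1 kb, with 1 protein-coding start. This start had the highest DHSs of the 5 genes. The DHS chr8:122281781-122282120, just before the start, had a height of 23.6 in replicate 1 and 22.5 in replicate 2, and the one before it, chr8:122281341-122281580, had 27.5 and 16.2. The window held 30 and 19 DHSs, of which 26 and 15 were distal, or 16.8 and 9.67 per 100 kb, the 97.5 and 84.8 percentile. Of these distal DHSs 17 and 8 had the Zfpm1 start as the nearest. The values of Zfpm1 and Gata6 in distal DHSs per 100 kb overlapped, and both genes were above Gata4, Gata5 and Zfpm2 in each library. The highest distal DHSs were upstream: chr8:122273241-122273440, 8810 bases from the start, at 8.47 and 5.07, and chr8:122269521-122269720, 12520 bases from it, at 5.77 and 2.31. The latter DHS covers the 5′ end of Zfp469, at 122269569, annotated as a long non-coding RNA gene, so it cannot be assigned to Zfpm1 alone. The third, chr8:122333241-122333420 in an intron, had 5.84 and 1.86. A further DHS at chr8:122376401-122376680, at 24.7 and 21.7, belongs to the start of the neighbour Zc3h18. The promoter of Zfpm1, chr8:122281891-122282190, is shown as the most accessible of the 5, and the highest distal DHS in its extent in replicate 1, chr8:122273241-122273420, for its long footprint. Both are on the plus strand with replicate 1 footprints in capitals.
Zfpm1 promoter: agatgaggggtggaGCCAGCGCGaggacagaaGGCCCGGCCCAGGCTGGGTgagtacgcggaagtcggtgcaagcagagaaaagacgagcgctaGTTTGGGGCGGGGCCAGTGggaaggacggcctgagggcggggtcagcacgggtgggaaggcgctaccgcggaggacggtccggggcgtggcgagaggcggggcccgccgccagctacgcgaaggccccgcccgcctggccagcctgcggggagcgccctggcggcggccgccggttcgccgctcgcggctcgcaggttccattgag
Zfpm1 upstream DHS: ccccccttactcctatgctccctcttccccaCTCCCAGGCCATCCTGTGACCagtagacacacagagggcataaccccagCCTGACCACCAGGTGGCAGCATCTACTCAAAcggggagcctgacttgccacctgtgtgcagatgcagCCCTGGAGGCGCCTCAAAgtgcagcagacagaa
The promoter interval held 3 footprints with 47 bases in replicate 1 and 6 with 69 bases in replicate 2.

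Zfpm2, by far the longest of the 5 genes, lies on the plus strand of chromosome 15 at 40655035-41104592, 449.6 kb. The DHS over its main start, chr15:40654801-40655180, had a height of 4.37 in replicate 1 and 2.43 in replicate 2, and the second protein-coding start, at 40664990, had no DHS in either. Per 100 kb Zfpm2 had 3.09 and 5.46 distal DHSs, on either side of the medians of 4.89 and 5.23 over protein-coding genes. Of its 17 and 30 distal DHSs, 17 and 27 were in introns of Zfpm2. The highest, chr15:41029841-41030000, had 9.91 and 2.97, and was higher than the start DHS in both libraries. The others named by rank lie near the 3′ end: chr15:41078501-41078660 at 2.57 and 2.78, which was not lower in replicate 2, and chr15:41079741-41079900 at 3.32 and 0.711. Sequences of the first 2 are shown on the plus strand, with replicate 1 footprints in capitals, for the protein binding letters they hold.
Zfpm2 intronic DHS: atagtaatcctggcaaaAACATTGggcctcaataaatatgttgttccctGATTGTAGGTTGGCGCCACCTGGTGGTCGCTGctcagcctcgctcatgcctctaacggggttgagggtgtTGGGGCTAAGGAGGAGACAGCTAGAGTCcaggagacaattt
Zfpm2 3′ intronic DHS: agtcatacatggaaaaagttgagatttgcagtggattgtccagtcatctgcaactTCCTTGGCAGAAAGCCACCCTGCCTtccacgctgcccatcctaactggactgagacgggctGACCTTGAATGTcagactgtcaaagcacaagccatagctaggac
The second of these holds TGACCTT, the SF-1 letters read on the other strand, at 41078616-41078622, and all but its first base are in capitals.

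**Figure D3:**
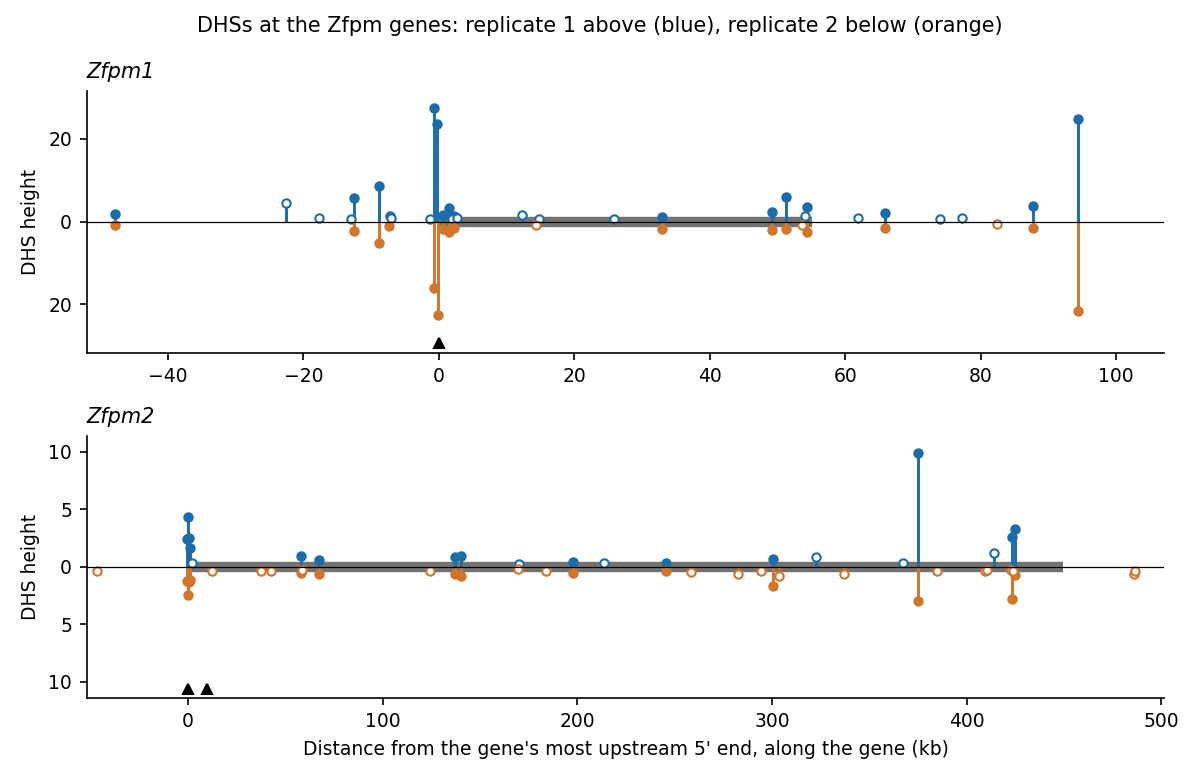
DHSs at Zfpm1 and Zfpm2 by distance from the most upstream 5′ end (kb, along the gene), drawn as for the Gata genes, with replicate 1 upward (blue) and replicate 2 downward (orange). At Zfpm1 the start DHSs reach 27.5 and 22.5 and the stem at the right edge is the start of Zc3h18; at Zfpm2 the highest stem (9.91 and 2.97) is intronic and many low DHSs of replicate 2 are open circles, found in that library only.

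The highest distal DHSs of Gata5, Zfpm1 and Zfpm2 have long footprints over the same kind of letters. The letters CC and C with any base between them, then any base and AG, then any 2 bases and GGC, were searched on both strands as the core of the site bound by CTCF, the zinc finger protein of chromatin loops and insulators. This motif was added after the sequences had been read. It stood in the upstream DHS of Gata5 (GCCCCCTGGTGG at 180347309-180347320), in the upstream DHS of Zfpm1 (CCACCAGGTGGC at 122273326-122273337) and in the intronic DHS of Zfpm2 (GCCACCTGGTGG at 41029904-41029915). The footprints over these 3 sites measured 30, 31 and 32 bases in replicate 1 and 26, 24 and 23 in replicate 2, against a median footprint of 10 and 8 bases in the whole libraries. The second highest distal DHSs of Gata5 and Zfpm1 held it too, within 5 bases of footprints of 31 bases each in replicate 1 and 19 bases each in replicate 2. In all, 7 of 94 and 6 of 87 DHSs held the core, beside 5.59% and 3.86% of all DHSs. Within 5 bases of a footprint it was found at 6 of 181 and 5 of 108 footprints, beside 2.02% and 1.5%. These counts include the DHSs whose sequences had been read, so they are not independent of the choice of motif. None of the DHSs of Gata4 or Gata6 held these letters, which says nothing of CTCF at other letters.

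GATA elements were about as frequent in these windows as in the whole lists. The letters GATA with A or T before them and A or G after them stood, on either strand, in 14 of 94 DHSs in replicate 1 and in 10 of 87 in replicate 2, beside 14% and 14.3% of all DHSs. TGATAA alone is one of these spellings and was in 3.34% and 3.52% of all DHSs. By gene, in replicates 1 and 2, DHSs with a GATA element numbered 3 and 1 at Gata4, 0 and 0 at Gata5, 3 and 1 at Gata6, 6 and 3 at Zfpm1, and 2 and 5 at Zfpm2. They stood within 5 bases of a footprint at 3 of 181 and 1 of 108 footprints, beside 1.05% and 0.893%, and all 4 were at Zfpm1 or Zfpm2. The SF-1 letters, AAGGTCA or the same word with C in place of T, were in 16 and 11 DHSs, beside 12% and 10%. Within 5 bases of a footprint these letters were found at 3 footprints in replicate 1 and 0 in replicate 2, beside 1.72% and 1.31% of all footprints. The 3 were in the DHS between Gata4 and Neil2, an upstream DHS of Zfpm1 and the 3′ intronic DHS of Zfpm2. The E-box CATCTG, on either strand, the letters of the TAL1 partner site, was in 11 and 14 DHSs, beside 13.6% and 11.6%. TGATAA is one of the GATA spellings, and the CTCF core can hold the E-box where its free bases allow it. A match is a description of letters, not a binding site.

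Sharing between the libraries differed from gene to gene. Of the DHSs in the 5 windows, 58 of 94 in replicate 1 and 58 of 87 in replicate 2 overlapped a DHS of the other library by at least 1 base, or 61.7% and 66.7%, beside 62.2% and 51.8% of all DHSs. Gata6 shared 14 of 18 and 14 of 17, and Gata4 11 of 17 and 10 of 12. Gata5 shared 3 of 9 and 3 of 4, all 3 of them distal. Zfpm1 shared 16 of 30 and 16 of 19, so that most DHSs seen in 1 library only came from replicate 1. Zfpm2 was the other way round, with 14 of 20 and 15 of 35. Among distal DHSs 43 of 75 and 40 of 69 were shared, beside 56.3% and 44.5%. Once overlapping DHSs of both libraries were joined there were 121 sites, of which 57 were in both, 35 in replicate 1 only and 29 in replicate 2 only, 20 of the last at Zfpm2. The unshared DHSs were lower by median, at a height of 0.767 against 2.25 for shared ones in replicate 1 and 0.391 against 1.44 in replicate 2. An exception was chr8:122259461-122259640 in the Zfpm1 window, which stood at 4.47 with 4 footprints in replicate 1 and was absent from replicate 2. Of the 57 sites found in both libraries 42 were higher in replicate 1, and the median log2 ratio was -0.46.

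**Figure D4:**
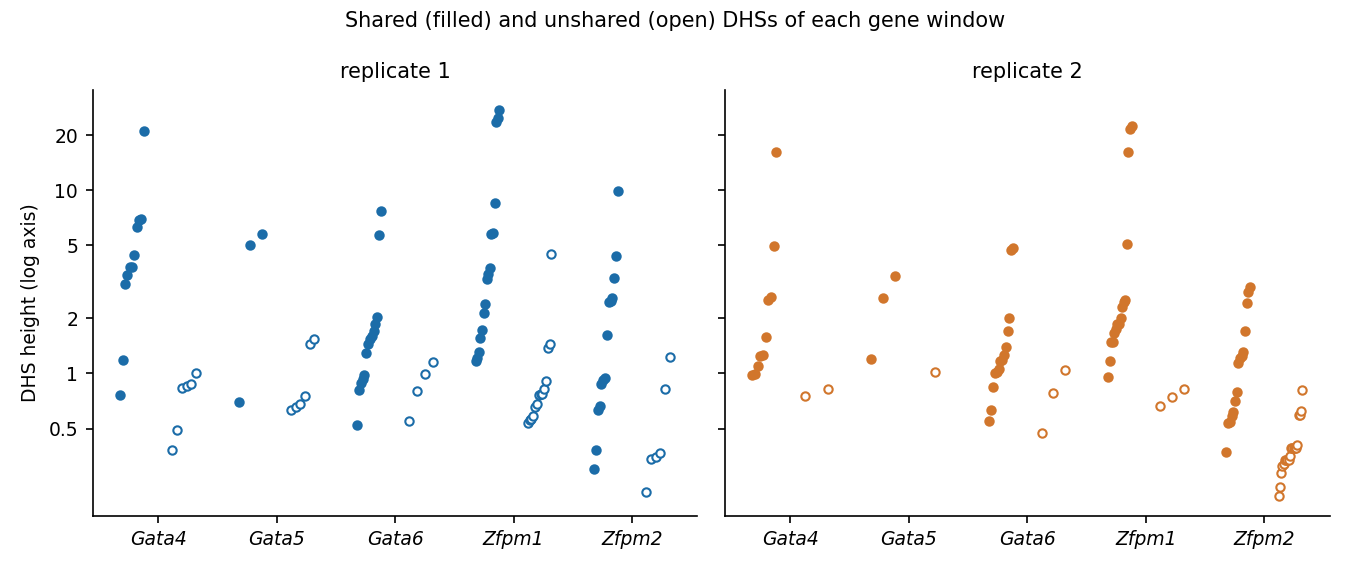
Height (log axis) of every DHS in the window of each gene, in replicate 1 (left) and replicate 2 (right), with filled circles for DHSs that overlap one of the other library and open circles for those that do not. Shared DHSs reach the top of each column, and most unshared ones lie low, with the lowest medians at Zfpm2 (0.358 and 0.373). The highest unshared DHS, at Zfpm1 in replicate 1, reaches 4.47.

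Footprints per DHS were slightly above those of the whole libraries. The DHSs of the 5 windows held 181 distinct footprints in replicate 1 and 108 in replicate 2. Counted per DHS, with 3 footprints of Gata4 that lie in 2 overlapping DHSs counted in each, there were 1.96 and 1.24, beside 1.78 and 1.09 over all DHSs counted the same way. At least 1 footprint was in 75 of 94 and 58 of 87 DHSs, beside 77.2% and 62.5%. Zfpm1 had 61 and 37 footprints, Zfpm2 37 and 30, Gata4 35 and 17, Gata6 29 and 19, and Gata5 19 and 5. At own starts Gata6 had 11 and 10 footprints, Zfpm1 12 and 18, Zfpm2 12 and 5, Gata4 4 and 2, and Gata5 5 and 0. Footprints overlapping one of the other library numbered 57 of 181 and 63 of 108, beside 28.6% and 45.2% of all footprints. By gene they were 15 and 13 at Gata4, 2 and 2 at Gata5, 7 and 9 at Gata6, 23 and 28 at Zfpm1, and 10 and 11 at Zfpm2. Replicate 2 had fewer footprints than replicate 1 at each of the 5 genes and in the whole library, and its heights were lower too. The part of height in the number of footprints was not tested.

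Accessible bases in the cut-rate track gave the same order of the Gata genes as the distal counts of replicate 2. At an FDR of 0.05 or less, the window of Gata6 had 4.16 and 3.28 kb per 100 kb, that of Gata4 3.17 and 2.13, and that of Gata5 2.25 and 0.929. Zfpm1 had 6.31 and 3.69, and Zfpm2 1.03 and 1.32. The whole genome had 1.36 and 1.31, so Gata6, Gata4 and Zfpm1 were above it in both libraries, Gata5 in replicate 1 only, and Zfpm2 was below it in replicate 1 and just above in replicate 2.

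The rest of the family and its known partners were placed beside these genes from lists chosen by name. The shares of these lists that were open in both libraries stand beside 65.8% over all protein-coding genes. Of 8 other genes for GATA-type zinc finger proteins, 6 had an open start in both libraries. Gata2, a factor of blood stem cells and endothelium, stood at 9.08 and 4.97, above Gata6 in each library. Gata3, a factor of chromaffin cells and T cells, had 1.89 and 1.46, and Trps1, a GATA-type repressor, 4.30 and 3.36. Gata1, the erythroid factor that first revealed Zfpm1 as its cofactor, had a closed start in both libraries, as had Zglp1. Among 16 partners 13 were open in both, Nr5a1 at 9.01 and 4.09 among them. Nkx2-5, a heart factor, was closed, Tbx5 was open at 0.542 in replicate 1 only, and Kdm6b at 0.986 in replicate 2 only. Of 20 genes described with GATA elements in steroid-producing cells, 15 were open in both, including Star at 7.55 and 4.02 and Cyp11a1 at 6.22 and 1.80, which encode the cholesterol carrier and the enzyme of the first step of steroid synthesis. Hsd3b1, Hsd3b2, Cyp19a1 and Fshr were closed in both, and Cyp17a1 was open at 0.792 in replicate 1 only.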

How the data were processed

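DNase-seq peak lists, footprints and cut-rate tracks on mm10 were used as deposited, for 2 libraries. Peak heights are signal values that the authors deposited in the peak lists; they came in whole steps of 0.00833 and 0.00888, with medians of 121 and 81 steps. If 1 step is 1 count per M, the libraries hold 120.0 M and 113 M counts; this was not stated. By the deposited names, the cut-rate track gives an FDR per base and each listed footprint is at an FDR of 0.01. Aligner, callers and versions were not given in the sources used here. Reads of an F1 cross were set on 1 reference genome, so strain differences can lower signal at some sites.

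Each library has 2 peak lists (130945 and 81558 DHSs, and 157786 and 65480). The longer was used throughout, without filtering, and overlapping neighbours (683 and 402) were kept. Windows, starts, sharing (1 base), footprints wholly within a DHS, and motifs were computed with Python 3.11.15 scripts (pandas 2.3.3) from GENCODE M21 and the RefSeq GRCm38.p6 sequence. Counts were checked on simulated intervals. The same rules over all protein-coding genes gave the medians and percentiles. The 5 genes, the named DHSs (the highest start DHS, and the 3 highest distal DHSs found in both libraries by mean height) and the gene lists were chosen with earlier results of these data known. With 1 group of 2 libraries no test was made. Alternatives were other windows, the shorter lists, other start flanks and overlaps, and each library alone.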

Additional observations from a re-analysis of the deposited data

How the results depend on the processing

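Under each alternative the mean excess of Gata6 over Gata4 and over Gata5 stayed above 0, though for all DHSs with 100 kb on either side it did not in replicate 1 taken alone. The excess of Gata6 over Gata4 in distal DHSs per 100 kb was 4.23, and 12.6 with 10 kb on either side, 1.26 with 100 kb, 1.48 on the shorter lists, 6.11 and 1.61 with narrower and wider start flanks, and 7.42 for DHSs nearest to an own start. Over Gata5 it was 4.71, and 15.9, 1.05, 2.50, 6.58, 2.09 and 6.54 under the same settings in that order. For all DHSs the excess over Gata4 was 4.71, and 16.7 with 10 kb, 0.437 with 100 kb and 0.830 on the shorter lists; over Gata5 it was 7.17, and 20.9, 0.114 and 4.29. With each library alone the distal excess was 4.11 to 4.35 over Gata4 and 4.09 to 5.33 over Gata5, and that of all DHSs 3.64 to 5.78 and 5.26 to 9.08. The share of DHSs found in both libraries was 64.2%, 75.4% on the shorter lists, 54.2% with a reciprocal overlap of 50%, and 61.7% to 66.7% by library. Open starts numbered 4 to 5, footprints per DHS 1.24 to 1.96 and DHSs with a GATA element 11.5% to 14.9% by library; TGATAA alone was in 3.85%. Counting overlapping DHSs of a list once, an alternative chosen after the data were seen, moved no value by over 1 SD of the libraries. The cause of these shifts was not tested. No paired analysis was possible because there is 1 group.

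The limits are 2 libraries of 1 group, heights that differ between them after scaling, low DHSs near the limit of calling, and windows that take in neighbouring genes. At this depth a start without a DHS, such as that of Gata5 in replicate 2, is not shown to be inaccessible.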
